A study of Mus musculus with 2 samples.

Results

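The genes described here build the entry gate and the folding machinery of the endoplasmic reticulum (ER). They are 44 genes chosen by name for their function, and all 44 were found among the 21542 genes of the deposited table. The table holds RNA sequencing of Min6, a mouse insulinoma line that secretes insulin and serves as a model of the beta cell; the labels give its strain as C57BL/6. The series has 1 library of cells transfected with a control vector and 1 of cells given a vector that expresses the glucocorticoid receptor (GR, encoded by Nr3c1). Both groups were cultured at 25 mM glucose with 15% serum, and received 4 ug of plasmid with 4.8 ul of Lipofectamine 2000 per 3.5 cm dish. The sources used here do not give the promoter of the vector, the share of cells that took it up, the harvest time or whether a glucocorticoid was added. With 1 library per group, none of the differences below could be checked against replicates.

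A beta cell makes insulin as a precursor with a signal peptide at its front. The signal recognition particle binds that peptide as it leaves the ribosome and docks at its receptor on the ER, the chain passes through the Sec61 channel, and signal peptidase removes the peptide. Inside, protein disulfide isomerases with the Ero1 oxidases form the disulfide bonds that insulin needs, Hsp70-type and lectin chaperones hold the unfinished chains, and chains that fail to fold are sent back to the cytosol for degradation.

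Summed over genes, the control library held 18537326 reads and the GR library 18525668. The targeted gene Nr3c1 had 2645 and 5202 reads, a fold of 1.97 (95% interval 1.88 to 2.07). Folds are GR over control after scaling for library size; their exact Clopper-Pearson intervals cover counting error only, since PCR reads without molecular identifiers are not independent molecules. All 9 beta cell markers were present, with 4.97% of the control reads and 4.71% of the GR reads in sum. They did not move together. Ins1, Ins2, Iapp, Nkx6-1 and Chga had fewer reads in the GR library, and Pdx1, Mafa, Slc2a2 and Chgb had more. Cela1, a marker of acinar cells, a cell type rich in ER, had 7 and 13 reads; other acinar markers are not used here. The part of cell makeup in the differences below was not tested, and in bulk RNA fewer cells of a type cannot be told apart from less RNA per cell.

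The set as a whole was close to the same in both libraries, with more genes a little above a fold of 1 than below. Of 44 genes, 29 lay above a fold of 1 (65.9%) and 15 below, against 51.3% above 1 among the 11070 genes averaging 100 reads or more. The median log2 fold was 0.04 over the 44 genes and 0.0042 over those 11070. In sum the 44 genes took 143611 control reads and 147519 GR reads, 0.775% and 0.796% of each library. A fold above 1.1 was seen for 1 gene, Sec11c, against a background of 10.7% of those 11070 genes. A fold below 1/1.1 was seen for 1 gene, Srp54b, against 10.4%. That background is not matched for depth. Of the 4867 genes averaging 1000 reads or more, 200 lay above 1.1 and 145 below 1/1.1. Of the 35 members of that depth, 0 lay past 1.1-fold in either direction. Each gene was also given an exact two-sided binomial test, adjusted by Benjamini-Hochberg across all 21542 genes, called the library test below, which compares these 2 libraries and not the conditions. It called 3 genes higher in the GR library (Ero1lb, Pdia3 and Ssr3), where the background is 1.49% of all genes, and 1 lower (Srp54b), where it is 1.11%. These 44 genes are read more deeply than most, and among the 4867 genes averaging 1000 reads or more the background was 4.75% higher and 3.12% lower. The 3 higher genes come from 35 members of that depth. When the exact test of edgeR with a preset dispersion of 0.01 took the place of counting error alone, 0 of the 44 genes passed. For 33 of the 44 genes the counting interval held a fold of 1. It lay above 1 for 10 (background 10.8% of the 11070 genes) and below 1 for 1 (background 8.63%). The interval narrows with depth. Among genes averaging 1000 reads or more it lay above 1 for 762 of 4867 and below 1 for 535. For the 35 members of that depth these counts were 9 and 0.

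**Figure D1:**
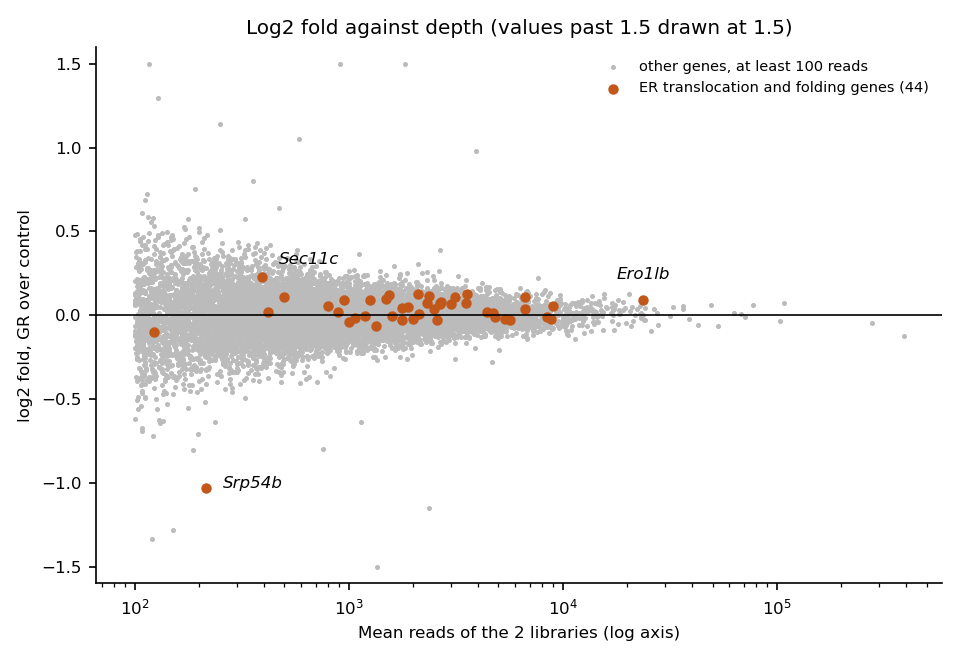
Log2 fold of GR over control (vertical axis) against the mean reads of the 2 libraries (horizontal, log axis) for genes with at least 100 reads; orange points are the 44 ER genes and grey points the other genes. The ER genes lie inside the grey cloud, which narrows with depth, except Srp54b at a log2 fold of -1.03.

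In the authors' deposited table, 0 of the 44 genes passed an adjusted p under 0.05, where the background is 0.0186%. Srp54b alone had an unadjusted p under 0.05 in the authors' deposited table (0.0187, log2 fold change -1.04, adjusted p 1; background 1.09%), and it is the 1 member on the authors' deposited list of 233 genes. Those p-values equal the exact test of edgeR run at a dispersion set to 0.04, so their spread was not measured. In the authors' deposited enrichment report, the protein export set (28 genes) had a normalized score of 1.01 and an FDR q of 0.946. Its set for protein processing in the ER (163 genes) had 1.00 and 0.976. By normalized score they ranked 83 and 123 of 307 sets.

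The largest difference fell on a gene with near-identical copies. Srp54 is the subunit of the signal recognition particle that binds the signal peptide and GTP. The mouse genome has a cluster of copies on chromosome 12, all on the plus strand in the deposited coordinates: Srp54a (55080262 to 55115367), Srp54b (ENSMUSG00000112449, 55155104 to 55189573) and Srp54c (55230168 to 55263836), the last not one of the 44 genes. Over 1512 coding bases, Srp54a and Srp54b differed at 0 positions in the GENCODE M21 transcripts (build GRCm38). Srp54c differed from both at 6 positions: T501C, T945C, G946A, T965G, A1197T and G1249A, written as the base of Srp54a, the position counted from the start codon, and the base of Srp54c. The stretch of 90 coding bases with the most of these positions that lies in 1 exon is shown for each copy, because a read from it can tell Srp54c from the others but cannot tell Srp54a from Srp54b. Capitals mark the 2 positions where the copies differ. The stretches are coding bases 1178 to 1267, at chr12:55108523-55108612, chr12:55183583-55183672 and chr12:55257446-55257535, in the order printed.
Srp54a: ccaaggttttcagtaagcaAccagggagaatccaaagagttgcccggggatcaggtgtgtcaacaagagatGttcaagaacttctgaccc
Srp54b: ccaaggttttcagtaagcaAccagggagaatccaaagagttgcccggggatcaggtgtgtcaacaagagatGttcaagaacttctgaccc
Srp54c: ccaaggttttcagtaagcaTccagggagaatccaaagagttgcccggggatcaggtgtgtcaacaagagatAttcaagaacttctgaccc

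Reads went down at Srp54b and up at Srp54c. Srp54b had 288 control reads and 140 GR reads, a fold of 0.488 (0.395 to 0.599) and an adjusted p of 6.56e-10 in the exact library test. Srp54c had 383 and 489 reads, a fold of 1.28 (1.12 to 1.47) and an adjusted p of 0.0202 in that exact test, which was 0.110, at a fold of 1.24, with a trend on GC content removed (described below). Srp54a had 128 and 119 reads (fold 0.932, 0.720 to 1.21). Srp54b and Srp54c moved in opposite directions. Srp54a and Srp54b, which have the same coding bases, had 416 and 259 reads together, a fold of 0.624 (0.533 to 0.731). The sum of the 3 copies, with an interval across 1, was 799 and 748 reads, a fold of 0.939 (0.849 to 1.04). Within the sum, Srp54b held 36.0% of the control reads and 18.7% of the GR reads, and Srp54c 47.9% and 65.4%. Of the 31-base stretches in the annotated transcripts, 72.5% of those of Srp54a, 89.9% of those of Srp54b and 96.0% of those of Srp54c also occur in another gene. The sources used here do not say how reads that match several copies were assigned, so the value of a single copy is uncertain; its part in the difference was not tested. No other member of the 44 shared as much: the next was Srpr at 27.8%, most of it with the gene Gm6733.

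**Figure D2:**
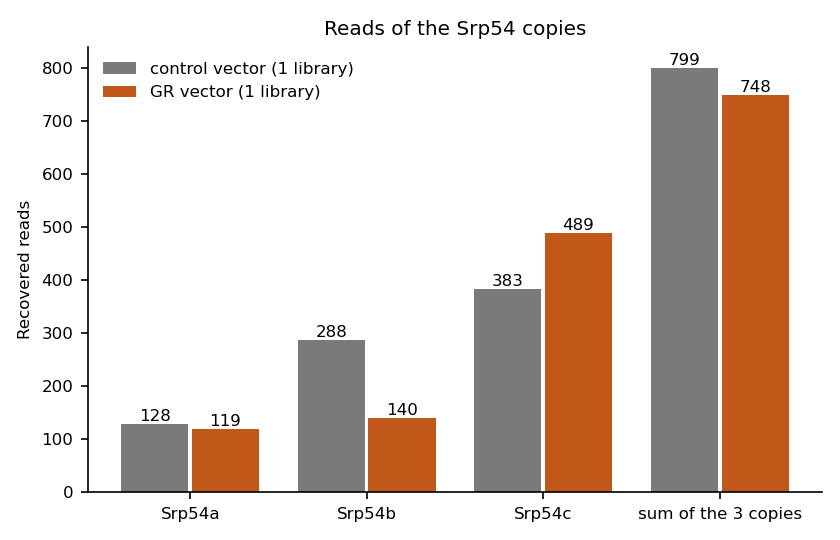
Recovered reads (vertical axis) of the 3 Srp54 copies and of their sum (grey for control, orange for GR, 1 library each), with no error bars. Srp54b goes from 288 to 140, Srp54c from 383 to 489, and the sum from 799 to 748.

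The rest of the signal recognition particle and its receptor stayed within counting error. None of the other 8 genes of this group passed the library test, and the group's median log2 fold was 0.01. Srp9 and Srp14 form the end of the particle that slows translation. Srp9 had 1213 and 1289 reads (fold 1.07, 0.985 to 1.15) and Srp14 1374 and 1312 (fold 0.958, 0.887 to 1.03). Srp68 and Srp72 bind each other on the RNA of the particle. Srp68 had 2122 reads in each library, and Srp72 had 2944 and 3076 (fold 1.05, 0.996 to 1.1). Srp19, which helps to assemble the particle, was read 417 and 421 times. Of the receptor, Srpr (the GTP-binding alpha subunit) was the most read gene of the group with 4718 and 4739 reads (fold 1.01, 0.967 to 1.05), and Srprb, its membrane anchor, had 785 and 814 (fold 1.04, 0.942 to 1.15).

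At the channel, none of the 5 genes passed the library test. Sec61a1, which forms the pore, had 5739 and 5618 reads (fold 0.982, 0.946 to 1.02). The small subunits went from 1198 to 1190 reads for Sec61b and from 482 to 518 for Sec61g (fold 1.08, 0.950 to 1.22). Sec62 and Sec63 help chains that enter after they have been made, and Sec63 recruits the Hsp70 chaperone BiP to the channel. Sec63 had 2006 and 2181 reads, the second highest fold of all 44 genes at 1.09 (1.03 to 1.16), but an adjusted p of 0.123 in the exact library test. Sec62 had 2591 and 2719 reads (fold 1.05, 0.997 to 1.11).

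The translocon-associated protein complex sits beside Sec61 and aids the entry of chains whose signal peptides engage the channel poorly. Its gamma subunit gene Ssr3 (ENSMUSG00000027828, chromosome 3, 65379655 to 65392623, minus strand) had 3413 and 3708 reads, a fold of 1.09 (1.04 to 1.14) and an adjusted p of 0.0200 in the exact library test, which a correction for GC content ended (below). Ssr1 had 3025 and 3254 reads (fold 1.08, 1.03 to 1.13) and an adjusted p of 0.0825 in that exact test. Ssr2 was read 2460 and 2517 times and Ssr4 2000 and 1967 times, both with intervals across 1. The complex is built from all 4 proteins, and 1 of the 4 genes passed the test.

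Signal peptidase had 1 gene past 1.1-fold and 0 of 5 past the library test. Sec11c, one of its alternative catalytic subunits, had 362 and 422 reads and the highest fold of the 44 genes, 1.17 (1.01 to 1.35), with an adjusted p of 0.323 in the exact library test. Its partner in that role, Sec11a, had 916 and 973 reads (fold 1.07, 0.972 to 1.17). Per kb of exon, Sec11a was 1.69 times as high as Sec11c in the control library. The other subunits had 1598 and 1585 reads for Spcs1, 2610 and 2722 for Spcs2 and 1856 and 1916 for Spcs3. Spcs2, the most read of the group, had a fold of 1.05 (0.991 to 1.1).

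The disulfide-forming enzymes held 2 of the 3 genes that were higher in the library test. Ero1lb (ENSMUSG00000057069, chromosome 13, 12565874 to 12611396, plus strand) encodes the Ero1 oxidase typical of the pancreas, which reoxidizes protein disulfide isomerases. It was the most read of the 44 genes, with 22919 control reads and 24375 GR reads, a fold of 1.07 (1.05 to 1.09) and an adjusted p of 1.78e-09 in the exact library test. This is the narrowest interval of the 44. Of the 31-base stretches of Ero1lb, 11.6% occur in other genes, most of them in Gm18562. The broadly expressed oxidase gene Ero1l had 2262 and 2372 reads (fold 1.05, 0.992 to 1.11). Per kb of exon, Ero1lb stood 8.05 times above Ero1l with the control vector and 8.16 times above it with the GR vector.

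Among the isomerases, Pdia3 was higher and its relatives lay on both sides of 1. Pdia3 (ENSMUSG00000027248, chromosome 2, 121413775 to 121438687, plus strand), which works with calnexin and calreticulin on glycoproteins, had 6434 and 6929 reads, a fold of 1.08 (1.04 to 1.12) and an adjusted p of 0.00132 in the exact library test. P4hb, the classic protein disulfide isomerase, had 8829 and 9163 reads (fold 1.04, 1.01 to 1.07) and an adjusted p of 0.147 in that exact test. Pdia4 had 1478 and 1605 reads (fold 1.09, 1.01 to 1.17), also short of the threshold. Pdia6, by contrast, had 4841 and 4793 (fold 0.993, 0.954 to 1.03). Prdx4, an ER peroxiredoxin that uses peroxide to oxidize the isomerases, had 1015 and 983 reads (fold 0.971, 0.889 to 1.06). Over the 7 genes of the group the median log2 fold was 0.07, and 5 lay above 1.

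The chaperones and stress-induced proteins held 0 genes past the library test. Calr and Canx encode the lectins calreticulin and calnexin, which bind sugar chains of unfolded glycoproteins. Calr had 8448 and 8373 reads (fold 0.994, 0.964 to 1.02) and Canx 6585 and 6749 (fold 1.03, 0.993 to 1.06). Of the partners of BiP among the 44 genes, the J-domain proteins lay a little above 1. Dnajb9 had 1451 and 1544 reads (fold 1.07, 0.993 to 1.15) and Dnajb11 2619 and 2755 (fold 1.05, 0.9997 to 1.11), both with intervals across 1. Dnajc3 had 2269 and 2448 reads (fold 1.08, 1.02 to 1.15, adjusted p 0.143 in the exact library test). Hyou1, a large Hsp70-type chaperone that also exchanges the nucleotide of BiP, was the most read of this group with 5390 and 5286 reads (fold 0.984, 0.947 to 1.02). The small stress-induced proteins of the ER had intervals across 1, with 1071 and 1054 reads for Sdf2l1, 2619 and 2562 for Manf and 889 and 899 for Creld2.

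Genes of ER-associated degradation differed little in sum, with 20247 and 20307 reads over 5 genes and 0 past the library test. Edem1, which helps to pick misfolded glycoproteins, was the most read with 8837 and 8683 reads (fold 0.985, 0.957 to 1.02). Syvn1, the ubiquitin ligase Hrd1, had 1792 and 1750 reads (fold 0.979, 0.916 to 1.05). Its partner Sel1l had 3457 and 3621 (fold 1.05, 1.00 to 1.1), short of the threshold. The membrane proteins Derl1 and Derl2, which take part in the passage back to the cytosol, had 4412 and 4459 reads and 1749 and 1794 reads.

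**Figure D3:**
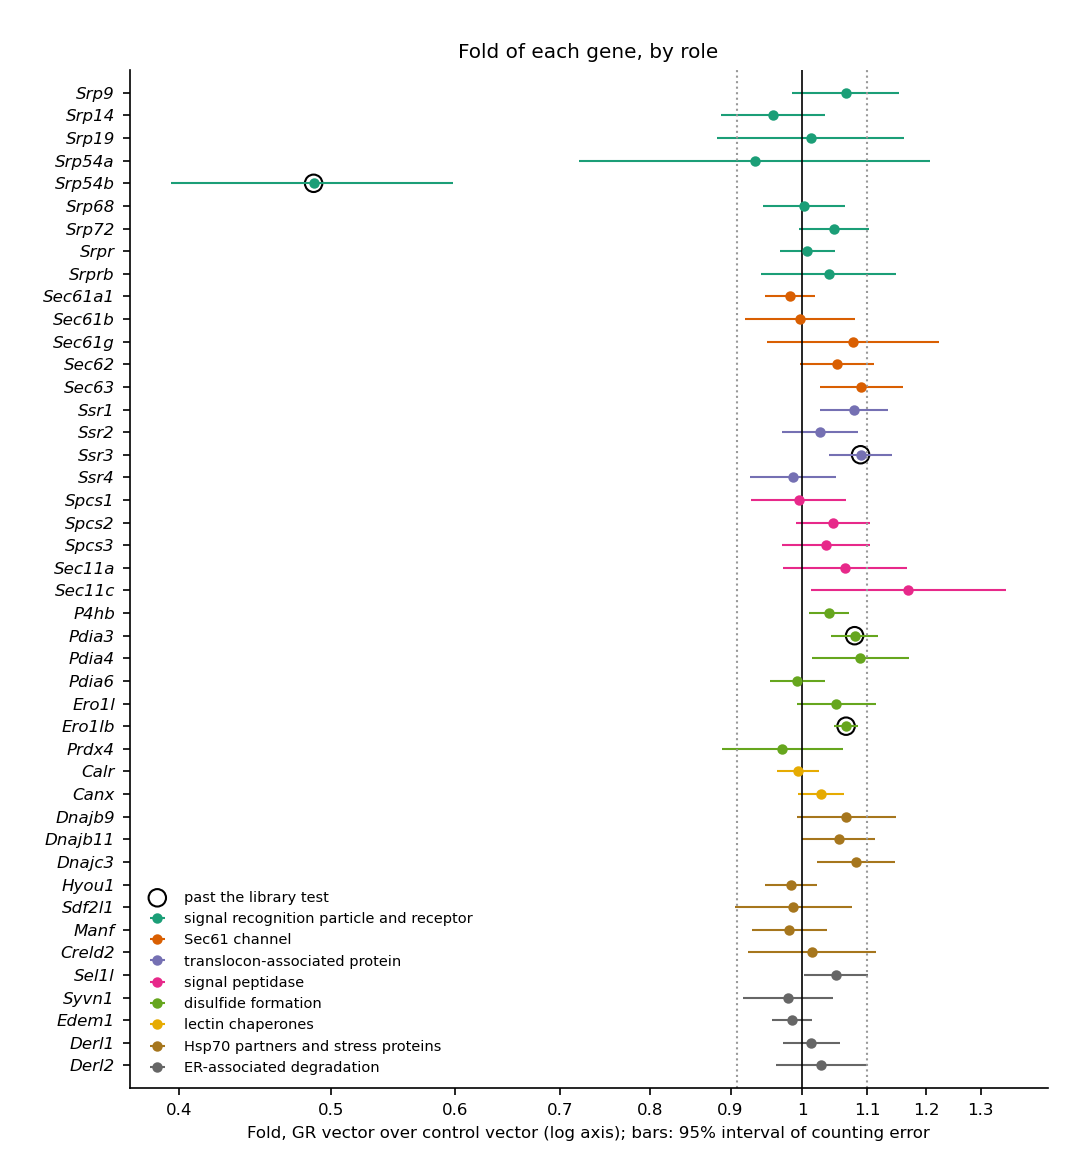
Fold of GR over control (horizontal, log axis) of the 44 genes, coloured by role, with 95% Clopper-Pearson intervals of counting error as bars; dotted lines mark 1.1-fold in each direction and open circles the genes past the library test. Srp54b stands alone at 0.488, and the other 43 genes lie between 0.932 and 1.17.

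The levels of the 44 genes spread far more than their folds. Expressed as RPKM (reads per kb of exon and per library size, with the deposited gene lengths), 39 of the 44 stood above the median of genes with at least 100 reads, which was 10.2 in the control library. Ero1lb led with 186 for control and 198 for GR. Below it came P4hb (166 and 173), Calr (158 and 157) and Pdia3 (111 and 119), an order that was the same in both libraries. These 4 stood above the channel itself, where Sec61b had 50.8 and 50.5 and Sec61a1 46.0 and 45.0. At the low end were Srp54a (1.30 and 1.21) and Srp54b (3.44 and 1.67), whose single-copy values are uncertain because of their near-identical copies. Next came Srp19 (6.20 and 6.26) and Sec11c (6.33 and 7.39).

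**Figure D4:**
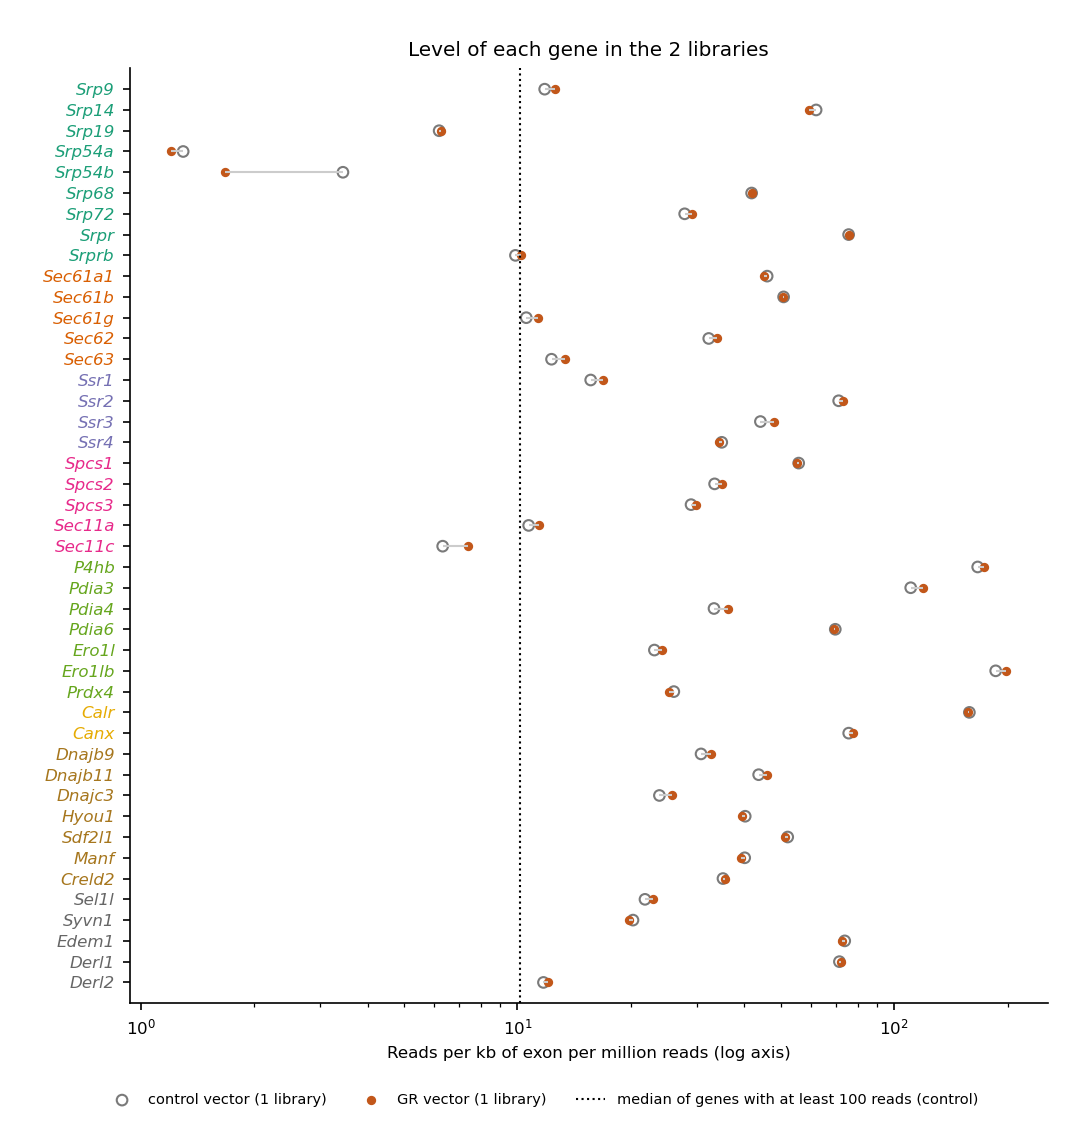
RPKM (horizontal, log axis) of each of the 44 genes (open grey for control, orange for GR, 1 library each); gene names are coloured by role and the dotted line is the median of 10.2 for genes with at least 100 reads in the control library. Apart from Srp54b the points of a gene lie close together, while genes range from 1.30 for Srp54a to 186 for Ero1lb in the control library.

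GC content of the transcripts moved with the fold across all genes. The smoothed trend over the 11070 genes ran from a log2 fold of 0.06 at 40% GC to -0.06 at 60%, and the 44 genes had a median GC of 47.2% against 49.6% over those 11070. With that trend removed the median log2 fold of the 44 genes was 0.03, and 29 again lay above 1 (65.9%, against 50.4% of the 11070 genes). The library test then still called 3 higher and 1 lower, but not the same 4 genes. Its background was 0.603% higher and 0.501% lower of all genes, and 1.89% higher of the 4867 genes averaging 1000 reads or more. Ssr3 fell short (fold 1.04, adjusted p 0.569 in the exact test), and P4hb passed (fold 1.06, adjusted p 0.0120 in the exact test). Pdia3 stayed past the threshold with a fold of 1.07, Ero1lb with 1.04 and Srp54b with 0.471.

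**Figure D5:**
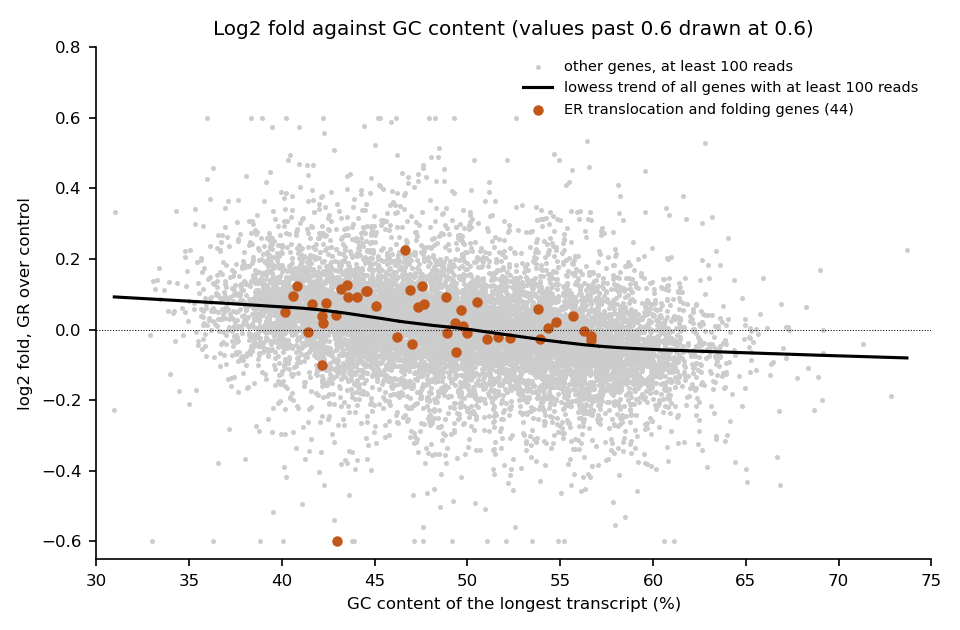
Log2 fold of GR over control (vertical) against the GC content of the longest transcript in percent (horizontal) for genes with at least 100 reads; orange points are the 44 ER genes and the black line is the lowess trend. The line falls from left to right, and the orange points scatter around it, Srp54b excepted.

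Many folding genes carry the ER stress response element, a promoter motif through which the factors ATF6 and NF-Y act when unfolded protein builds up. The motif was searched as CCAAT, 9 bases of any kind and CCACG, on both strands of the RefSeq promoter windows (build GRCm38.p6, from 250 bases before to 50 after each start). Of the 44 genes, 33 were matched to a window by symbol (Derl1, Ero1l, Ero1lb, Hyou1, Manf, Sec11c, Sec61a1, Spcs3, Srp19, Srp68 and Ssr2 were not), and 6 of the 33 (18.2%) held the motif, against 39 of 32851 windows (0.119%). In these shares a gene counted if any of its windows held the motif, while the background counts single windows. The core of a second element of this response, TGACGTGG, was found in 0 of the 33 and in 0.676% of all windows. Its end, CGTGG, is CCACG read on the other strand, so a match of one motif could overlap a match of the other. The matches are shown with 10 bases on either side, so that the genes with this element can be set beside their reads; capitals mark the fixed letters, and CGTGG followed by ATTGG is the same motif read on the other strand. In the order printed they are at chr8:84847065-84847103 (minus strand), chr11:50325790-50325828 (minus), chr15:88819510-88819548 (plus), chr14:118937817-118937855 (plus), chr12:17266481-17266519 (plus) and chr19:6046522-6046560 (plus).
Calr: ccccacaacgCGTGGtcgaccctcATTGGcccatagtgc
Canx: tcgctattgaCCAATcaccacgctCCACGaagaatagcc
Creld2: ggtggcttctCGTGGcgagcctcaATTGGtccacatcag
Dnajc3: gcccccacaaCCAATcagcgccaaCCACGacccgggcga
Pdia6: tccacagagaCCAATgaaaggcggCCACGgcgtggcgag
Syvn1: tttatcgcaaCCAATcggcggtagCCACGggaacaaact

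Genes with this element showed no shared direction. Of the 6, Canx, Creld2 and Dnajc3 lay above a fold of 1 and Calr, Pdia6 and Syvn1 below, from 0.979 for Syvn1 to 1.08 for Dnajc3. Their median log2 fold was 0.0058. The library test called 0 of the 6, where the background is 1.49% higher and 1.11% lower of all genes. With 6 genes, a count of 0 is near that share. The 27 genes whose window lacked the element had a median of 0.06, with 18 above 1 and 9 below, 2 higher and 1 lower in the library test. The 1 lower was Srp54b, whose single-copy value is uncertain, and Ero1lb, without a window, is in neither group. The median GC of the transcripts was 49.5% with the element and 46.9% without. With the GC trend removed the median log2 folds were 0.0026 and 0.04. The 2 groups were not tested against each other. A match of letters is a description and not a site shown to be bound.

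The neighbouring steps of the pathway were read from 111 further ER genes in 6 lists. In these, 62 genes lay above a fold of 1 and 49 below, the median log2 fold was 0.01, and the library test called 1 higher and 1 lower, where the background is 1.49% and 1.11% of all genes. Of the 106 that averaged 100 reads or more, 5 lay above 1.1-fold and 3 below 1/1.1, against 10.7% and 10.4% of the 11070 genes. This background is not matched for depth, and of the 4867 genes averaging 1000 reads or more, 200 and 145 lay past these limits. The gene called higher was Hsp90b1 (GRP94, the Hsp90 of the ER) with 9062 and 9503 reads (fold 1.05, 1.02 to 1.08, adjusted p 0.0323 in the exact test). The gene called lower was Emc1, a subunit of the ER membrane complex that inserts membrane proteins, with 1335 and 1163 reads (fold 0.874, 0.807 to 0.946, adjusted p 0.0382 in the exact test). Of the 31-base stretches of Emc1, 29.6% occur in other genes. With the GC trend removed neither gene passed; the fold of Emc1 was then 0.876 and that of Hsp90b1 1.01.

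By list, other folding enzymes and chaperones (25 genes) had a median log2 fold of 0.06, with 19 above 1 and 6 below. Hspa5, the gene of BiP, was the most read there with 9362 and 9740 reads (fold 1.04, 1.01 to 1.07, adjusted p 0.0941 in the exact library test). With the GC trend removed the fold of Hspa5 was 1.02, and 16 genes of this list lay above 1 and 9 below. Oligosaccharyltransferase (12 genes), which adds sugar chains as proteins enter, had a median of 0.01, with Rpn2 at a fold of 1.01 and Rpn1 at 1.01. Glycan trimming and quality control (9 genes) had a median of -0.01, with Ganab at 1.03 and Uggt1 at 1.04. Other degradation genes (23 genes) had a median of -0.02, with Vcp at 0.980. Membrane insertion genes (23 genes) had a median of -0.03, and of -0.02 over the 22 averaging 100 reads or more, with Bag6 at 0.973 and Emc10 at 0.951. Coat and cargo genes of ER exit (19 genes) had a median of 0.05, with Surf4 at 0.995 and Sec31a at 0.980. With the GC trend removed the medians of the 6 lists, in the order given here, were 0.02, 0.0084, 0.02, -0.02, -0.01 and 0.03. Glycan trimming and quality control, below 0 before this step, then had 7 genes above 1 and 2 below. No list was tested against the others.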

How the data were processed

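RNA was measured in 2 libraries, 1 per group. The deposited signal per gene is a read count scaled per library by the authors, as the values show; per the submitters' processing notes DESeq2 1.10.1 was named, and the sources used here give no aligner, counter, strand handling or build. Whole reads were recovered by dividing by the value of 1 read (100% of values within 0.01 reads). The log2 fold changes, p-values and adjusted p-values of the authors' deposited table were compared with edgeR 4.0.16 (exact test, dispersion 0.04) and differed by at most 4.46e-08 in p. The deposited enrichment scores were used as given. Deposited lengths and coordinates equalled those of GENCODE M21 (GRCm38) for 96.3% and 96.8% of 21516 matched genes.

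Libraries were scaled by TMM. The library test takes the doubled smaller tail of the binomial distribution (scipy 1.17.1), adjusted over 21542 genes. It was tested on simulated reads that hold counting error only, so spread beyond counting error was not covered. Log2 folds add 0.5 reads. GC trends are lowess fits (statsmodels 0.14.6, span 0.3) on the longest transcript. The 44 genes and all lists were chosen with earlier results of these data known. Named in full are genes past the library test, the 2 highest and 2 lowest folds and the most read gene of each role; of further lists, genes past the test and the 2 most read. Other genes are given in brief. Some genes that this rule or the marker lists name are not reported here. Alternatives were scaling by total reads or by DESeq2 1.42.0, a read minimum, GC removal, dispersion 0.01, other thresholds and leaving out or summing the Srp54 copies. Planned protein features were not analysed here.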

Additional observations from a re-analysis of the deposited data

How the results depend on the processing

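With 1 library per group, no library could be left out. No paired analysis was possible because each group has 1 library and the numbers carry no pairing. The count of 4 members past the library test (3 higher, 1 lower) was the same with scaling by total reads or by DESeq2 size factors, and the same 4 genes passed. Restricting the test to genes averaging 100 reads or more added Ssr1 to those 4, and an adjusted p under 0.01 lost Ssr3. With the GC trend removed the count was again 4, of which 3 were shared. With edgeR's exact test at a preset dispersion of 0.01 in place of counting error, 0 members passed (0 higher, 0 lower), so the calls rest on counting error as the only spread. Without Srp54a and Srp54b, or with the 3 copies summed to 1 gene (an alternative chosen after seeing the data), 0 members were lower. The count of members past 1.1-fold, 2 in all, was 1 without the Srp54 genes and 1 with the copies summed, in both cases with 0 lower. It was 0 (0 higher, 0 lower) among members averaging 1000 reads or more, and 1 at 1.2-fold, with 0 higher. With the GC trend removed, 2 members were lower than 1/1.1, Srp54a beside Srp54b. The median log2 fold, 0.0402, lay between 0.0288 (GC trend removed) and 0.0454 (without the Srp54 genes) under all alternatives run. At the deposited unadjusted p, 1 member passed in place of 0. Over all genes, the library test called 562 (322 higher, 240 lower), and 545 (289 higher, 256 lower) with scaling by total reads.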
